A study of Homo sapiens with 4 samples.

Results

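The mucins and trefoil factors described here are 10 genes of the gut's mucus layer, read from an RNA-seq table of 4 libraries from human colorectal cancer cell lines. They comprised 4 membrane mucins (MUC1, MUC12, MUC13 and MUC20), 3 secreted gel-forming mucins (MUC2, MUC5AC and MUC5B) and 3 trefoil factors (TFF1, TFF2 and TFF3). The members were chosen by gene symbol, and each of the 10 matched 1 of the 58735 genes of the table.

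For each of HCT116 and LOVO the table held 1 library of adherent cells and 1 of spheroids, all labelled as wild-type colon cancer cells. HCT116 and LOVO are established cell lines from human colorectal tumours. The adherent cells grew in RPMI-1640 with fetal bovine serum and no drug. The spheroids grew on ultralow attachment plastic in serum-free DMEM/F12 with B27, N2, bFGF and EGF, in the presence of oxaliplatin at 1 μg/ml by the study's methods (the labels give 1 mg/ml and no drug name). Growth form, medium and drug therefore changed together and cannot be told apart. With 1 library per condition no difference within a line has a replicate check, and whether fewer cells express a gene or each cell holds less of its RNA cannot be told apart in bulk libraries. Values are given as FPKM, the fragments on a gene per kilobase of its length and per 1000000 fragments of the library, which sets genes of different length on 1 scale. The libraries held 15483569 to 20429147 reads on genes, and the reads behind each FPKM were recovered from the gene length, which gave whole numbers for 100% of the values. Intervals are 95% exact (Clopper-Pearson for ratios, Poisson for levels) and cover counting error only.

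The libraries labelled LOVO went against a colorectal epithelial label at several defining markers. EPCAM, an epithelial adhesion molecule, was at 85.6 and 79.3 FPKM in adherent HCT116 cells and HCT116 spheroids, against 0.93 and 1.5 FPKM in the adherent and spheroid libraries labelled LOVO. CDH1, which encodes E-cadherin, was at 31.1 FPKM in each HCT116 library and at 0.117 and 0.00805 FPKM in the LOVO libraries. CDX2, the intestinal lineage factor, and VIL1, the brush border protein villin, had 0 reads in both LOVO libraries, although VIL1 had only 6 and 11 reads in HCT116. ALPI, the intestinal alkaline phosphatase, went the other way, with 1013 and 164 FPKM in adherent and spheroid LOVO cells and at most 1 read in HCT116. It made up nearly all of the summed FPKM of the 10 enterocyte markers in LOVO, 1014 and 164 against 25.9 and 25.5 in HCT116. Over the 7 epithelial markers the summed FPKM was 1749 and 1278 in HCT116 and 327 and 187 in LOVO. The keratins KRT8 (189 and 81.6 FPKM) and KRT18 (122 and 98.8 FPKM) made up most of the LOVO sums. Both stayed high there, although below HCT116 (571 and 418 FPKM for KRT8, 253 and 206 FPKM for KRT18). The 4 fibroblast markers summed to 5.52 and 15.9 FPKM in HCT116 and 52.5 and 71.6 FPKM in LOVO, where all 4 had over 3 reads. In spheroids 3 of these were higher in LOVO and 1, COL1A1, was lower (6.10 against 15.5 FPKM in HCT116). The 4 blood markers summed to at most 0.215 FPKM in any library. The part of these markers in the results below was not tested, and every difference between the lines is a difference between libraries with these labels.

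Mucins are large glycoproteins whose tandem repeats, rich in serine, threonine and proline, carry dense O-linked sugar chains. Membrane mucins are anchored in the apical cell surface and form the glycocalyx, whereas gel-forming mucins are stored in granules, secreted and cross-linked through their cysteine-rich ends into the mucus gel. Trefoil factors are small, disulfide-rich peptides secreted together with gel-forming mucins, which take part in repair of the mucosal surface. In the healthy colon MUC2 and TFF3 come from goblet cells, and in the stomach MUC5AC and TFF1 come from surface mucous cells and TFF2 from gland mucous cells.

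The coding sequences carried these features. Codons for serine, threonine or proline made up 44.1% of the longest annotated coding sequence of MUC1, 53.6% of that of MUC12 and 42.5% of that of MUC20. In the trefoil factors this share was only 18.9% to 20.9%. It was 30.7% in MUC13 and 15.3% in MUC2, whose longest coding annotation holds only 131 residues. Cysteine codons made up 9.52% of TFF1, 11.6% of TFF2 and 10.7% of TFF3. Among the mucins they ranged from 0.238% in MUC1 to 5.20% in MUC5AC. The most frequent exact unit of the tandem repeat is shown for 4 mucins, because these units are what makes a gene a mucin and because short reads from them cannot be placed at 1 position within the gene. Each is given 5′ to 3′ on the coding strand from the GENCODE 29 transcripts (GRCh38), with the codons for serine and threonine, the residues that carry the sugar chains, in capitals.
MUC1: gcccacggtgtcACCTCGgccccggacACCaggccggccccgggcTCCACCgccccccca
MUC5AC: gctcctACAACCAGCACAACCTCT
MUC12: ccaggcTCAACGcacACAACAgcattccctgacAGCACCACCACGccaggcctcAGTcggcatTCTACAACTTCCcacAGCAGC
MUC20: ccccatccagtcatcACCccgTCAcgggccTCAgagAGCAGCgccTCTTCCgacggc
The unit of MUC1 was found 19 times, that of MUC5AC 15 times, that of MUC20 10 times and that of MUC12 4 times in the longest coding sequence. Repeats of this period covered 69.4% of the coding sequence of MUC1, 24.4% of that of MUC5AC, 32.7% of that of MUC20 and 5.31% of that of MUC12. The MUC1 unit had a GC content of 81.7%. In the longest transcript, 42.4% of the 50-base positions of MUC1 and 61.5% of those of MUC12 occurred more than once within the gene, so a count over these genes depends on how repeated positions were handled in mapping, which is not given in the sources used here.

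Of the 10 genes, MUC1 was the only member with a mean over the 4 libraries of at least 1 FPKM, the filter applied to all genes before fold changes were compared, and 14429 of the 58735 genes passed it. The other 9 members were under it, and their values are given from the reads. The number of members at 1 FPKM or more was 0 in adherent and 2 in spheroid HCT116 cells (MUC12 and MUC20). It was 1 in adherent (MUC1) and 2 in spheroid LOVO cells (MUC1 and MUC13). This level was reached by 22.2% to 24.4% of all genes of the table, and by 53.1% to 57.8% of the protein-coding genes. Summed over the 10 members, the FPKM was 1.71 in adherent and 3.61 in spheroid HCT116 cells, against 16.3 in adherent and 80.4 in spheroid LOVO cells. MUC1 made up 14.6%, 14.3%, 87.4% and 96.7% of these sums, in the same order. Without MUC1 the other 9 members together reached only 1.46, 3.10, 2.05 and 2.61 FPKM. The 3 gel-forming mucins together stayed at 0.117 to 0.769 FPKM in all 4 libraries.

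**Figure D1:**
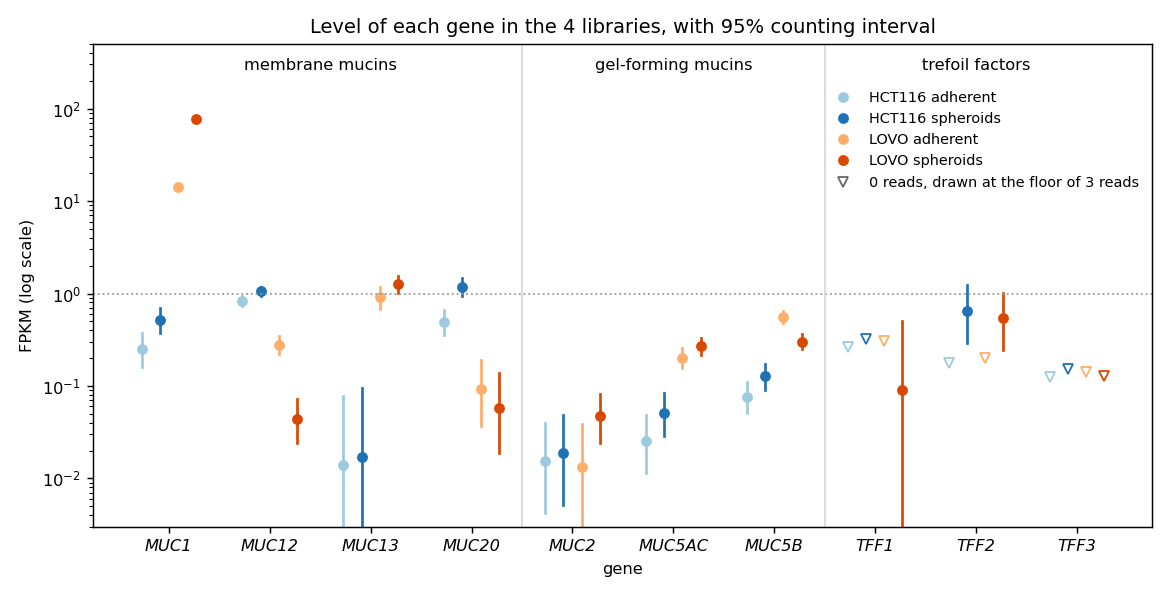
FPKM (log scale) of each of the 10 genes in the 4 libraries, with 95% exact counting intervals and 1 library per condition; open triangles mark 0 reads, drawn at the level that 3 reads would give, and the dotted line marks 1 FPKM. MUC1 in the 2 LOVO libraries, at 14.2 and 77.8 FPKM, stands above every other value, which are at most 1.26 FPKM.

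MUC1 (ENSG00000185499) is the membrane mucin of most glandular epithelia, with a cytoplasmic tail that takes part in signalling. On GRCh38 it spans 155185824 to 155192916 of chromosome 1, minus strand, with 29 annotated transcripts, 23 of them protein-coding, from 9 start positions. Of its 4717 exonic bases 48 are also exonic in AL713999.1, a gene of the same strand with 0 reads in each library. Its FPKM was 0.250 (24 reads) in adherent HCT116 cells and 0.517 (41 reads) in HCT116 spheroids, against 14.2 (1205 reads) in adherent LOVO cells and 77.8 (7380 reads) in LOVO spheroids. The counting intervals of the 4 levels, 0.160 to 0.371, 0.371 to 0.702, 13.5 to 15.1 and 76.0 to 79.6 FPKM, touched at most at the edge between the 2 HCT116 libraries. Ordered by FPKM, MUC1 was at place 19670 of the 58735 genes in adherent HCT116 cells and place 401 in LOVO spheroids.

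Compared to adherent cells, LOVO spheroids had 5.46-fold more MUC1 (counting interval 5.14 to 5.81), a log2 difference of 2.37 on the log2(FPKM + 1) scale. Of the 14429 genes compared, 158 had a larger difference in this direction. HCT116 spheroids had 2.07-fold more MUC1 than adherent HCT116 cells (1.22 to 3.59), a log2(FPKM + 1) difference of only 0.28, since both levels were under 1 FPKM. Between the lines, MUC1 was 57.1-fold higher in adherent LOVO than in adherent HCT116 cells (38.2 to 89.4) and 150.3-fold higher in LOVO than in HCT116 spheroids (110.7 to 209.6). On the log2(FPKM + 1) scale these line differences were 3.61 and 5.70. Each of these comparisons shares a library with another, so they are not independent of each other.

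RefSeq promoter entries were matched for 4 of the 10 members, MUC1 (2 entries), MUC2, MUC12 and MUC13. The 250 bases before the more downstream of the 2 MUC1 starts are shown because MUC1 is the member whose level differed most between the libraries. The GENCODE start of MUC1, at 155192916, lies inside this window, so its last bases are also annotated as MUC1. The window is chr1:155192910-155193159 on the minus strand of GRCh38.p14, printed 5′ to 3′ along the gene, with motif matches in capitals.
MUC1 promoter: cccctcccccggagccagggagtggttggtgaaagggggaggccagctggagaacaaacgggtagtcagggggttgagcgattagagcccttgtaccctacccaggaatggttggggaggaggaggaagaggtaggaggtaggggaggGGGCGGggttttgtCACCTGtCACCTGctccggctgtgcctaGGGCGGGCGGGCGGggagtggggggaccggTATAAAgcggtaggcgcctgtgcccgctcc
The motifs were chosen after this sequence was seen, and each was searched on both strands. The core of the TATA element was searched as TATAAA. The element bound by SP1 and related factors was searched as GGGCGG. The E-box that SNAIL and ZEB repressors recognise was searched as CACCTG, and the element of STAT factors as TTCNNNGAA. The MUC1 window held 1 match of the TATA element, 4 of the SP1 element (3 of them overlapping in 1 run) and 2 of the E-box, with none of the STAT element. Among all 35116 promoter windows of this length, 10.7% held the TATA element, 42.6% the SP1 element, 17.5% the E-box and 6.57% the STAT element. Of the windows of the other matched members, that of MUC12 held 1 TATA element on the opposite strand and those of MUC2 and MUC13 held none of the 4 motifs. The GC content was 66% for MUC1, 59.6% for MUC2, 57.6% for MUC12 and 41.6% for MUC13, beside a median of 58% over all windows. A match says only that these letters stand in the window.

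To see whether the LOVO difference of MUC1 stood alone on the chromosome, protein-coding genes within 100 kb of it were read. Of 15 such genes analysed here 12 passed the filter. In LOVO all 12 were higher in spheroids, with a median log2(FPKM + 1) difference of 0.67 and a range from 0.07 (CLK2, a splicing kinase) to 1.69 (HCN3, a cation channel), beside a median of -0.055 and a share of 45.5% higher among all genes compared. The others were DPM3, SLC50A1, SCAMP3, EFNA1, FAM189B, MTX1, EFNA3, THBS3, KRTCAP2 and TRIM46, and none of the 12 reached the 2.37 of MUC1. In HCT116, 6 of the 12 were higher and 6 lower, with a median of 0.0078 (-0.015 with TMM-style scaling). The count of 12 of 12 in LOVO was the same after rescaling to TPM and with TMM-style scaling.

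The nearest measured neighbours lie on either side of MUC1. THBS3, a thrombospondin of the extracellular matrix, begins upstream on the same strand and ends 2672 bases from MUC1, and its FPKM was 1.58 in adherent and 4.96 in spheroid HCT116 cells, and 2.65 in adherent and 6.46 in spheroid LOVO cells. It was thus higher in the spheroids of both lines, by 1.21 and 1.03 on the log2(FPKM + 1) scale. TRIM46, a microtubule-associated protein encoded on the opposite strand, ends 853 bases from MUC1 and was at 1.10, 2.0, 0.0738 and 1.12 FPKM in the same order. In adherent LOVO cells TRIM46 had 6 reads while MUC1 had 1205.

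**Figure D2:**
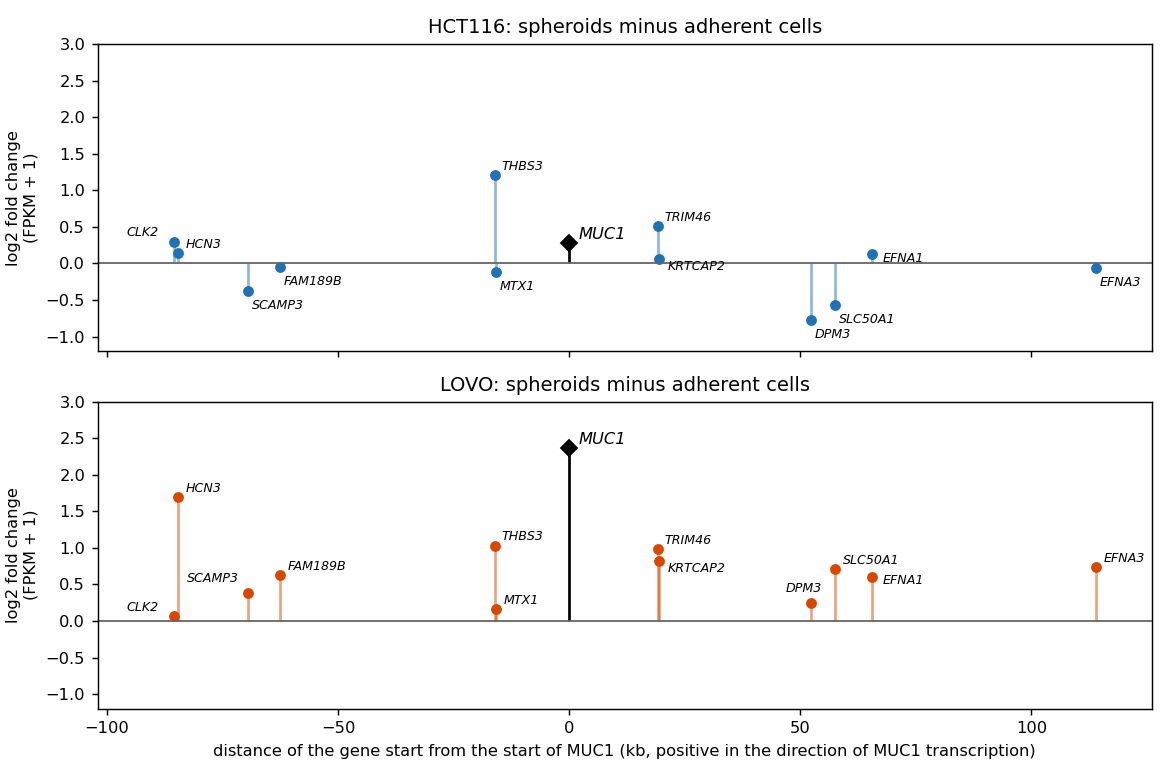
Log2 difference, spheroids minus adherent cells (FPKM + 1), of MUC1 (black diamond) and the 12 protein-coding genes within 100 kb analysed here that passed the filter (circles), against the distance of each gene's start from the MUC1 start in kb. All 12 neighbours lie above 0 in LOVO, between 0.07 and 1.69, and 6 of 12 do in HCT116.

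The other membrane mucins were far lower than MUC1 in the libraries labelled LOVO. MUC12 (ENSG00000205277), a transmembrane mucin of the colon surface, lies on the plus strand of chromosome 7 from 100969623 to 101018949. Its FPKM was 0.831 (290 reads) in adherent HCT116 cells and 1.06 (305 reads) in HCT116 spheroids, against 0.280 (86 reads) in adherent LOVO cells and 0.0435 (15 reads) in LOVO spheroids. In LOVO it was 6.43-fold lower in spheroids than in adherent cells (counting interval 3.69 to 12.0), whereas in HCT116 it was 1.28-fold higher (1.08 to 1.5). Between spheroids of the 2 lines MUC12 was 24.4-fold lower in LOVO (14.5 to 44.0), and between adherent cells 2.97-fold lower (2.32 to 3.82). Of its 17130 exonic bases 194 lie in exons of AC105446.1 on the opposite strand, whose reads cannot be told apart without strand. Of its 7 coding neighbours within 100 kb 6 passed the filter, and in LOVO 2 were higher in spheroids (ACHE, the acetylcholinesterase, by 2.10 and TRIM56 by 0.63) and 4 lower (TRIP6, UFSP1, SRRT and MUC3A).

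MUC13 (ENSG00000173702) is a membrane mucin of the intestinal and gastric epithelium with growth factor-like domains, encoded on the minus strand of chromosome 3 from 124905442 to 124953819. It had 1 read in each HCT116 library (0.0140 and 0.0170 FPKM), and 57 and 89 reads in adherent LOVO cells and LOVO spheroids (0.908 and 1.26 FPKM). The 2 LOVO levels did not differ beyond counting error, the ratio being 1.39 (0.987 to 1.98). With 1 read in HCT116 the ratio of LOVO to HCT116 had a wide interval, 11.2 to 2603 in adherent cells and 13.0 to 2968 in spheroids. MUC13 shared no 50-base stretch with another annotated gene. Its 2 coding neighbours, the integrin subunit ITGB5 and the endothelial membrane protein HEG1, were also higher in LOVO, at 47.6 and 53.9 FPKM against 14.6 and 12.8 FPKM for ITGB5.

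MUC20 (ENSG00000176945), a short membrane mucin known to associate with the MET receptor, lies on the plus strand of chromosome 3 from 195720882 to 195741123. Its FPKM was 0.497 (43 reads) in adherent and 1.18 (84 reads) in spheroid HCT116 cells, and 0.0919 (7 reads) in adherent and 0.0585 (5 reads) in spheroid LOVO cells. HCT116 spheroids had 2.37-fold more than adherent HCT116 cells (1.62 to 3.51), and in LOVO the ratio of 0.637 had an interval from 0.159 to 2.33. These counts are uncertain, because 54.1% of the 50-base stretches of MUC20 also occur in 21 other genes, among them 42.3% in MUC20-OT1, which overlaps it, and 21.5% in the pseudogene MUC20P1. MUC20P1 was at 0.847, 1.81, 0.0332 and 0.0592 FPKM in the 4 libraries and MUC20-OT1 at 1.85, 2.58, 0.966 and 1.2 FPKM, in the order above. Thus the order of the 2 lines was the same in MUC20 and in these 2 of the 21 genes that share stretches with it. MUC20P1 and MUC20-OT1 were also higher in HCT116 spheroids than in adherent HCT116 cells, as was MUC20. The part of reads from shared stretches in these differences was not tested.

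Of the 7 other membrane mucins listed, only MUC3A passed the filter. MUC3A, the intestinal neighbour of MUC12 on chromosome 7, was at 1.28 and 1.34 FPKM in HCT116 and went from 2.51 FPKM (511 reads) in adherent LOVO cells to 0.371 FPKM (85 reads) in LOVO spheroids, a log2(FPKM + 1) difference of -1.35. MUC3A and MUC12 were thus both lower in LOVO spheroids, the opposite of MUC1. MUC16, the CA125 antigen, had 28 and 169 reads in adherent and spheroid HCT116 cells and 315 and 48 reads in LOVO. MUC4, a partner of ERBB2, had 77, 70, 1 and 78 reads in the 4 libraries. MUC15 had at most 16 reads and MUC21 at most 4 in any library, while MUC17 and MUC22 had 3 or fewer in each.

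The gel-forming mucins are encoded side by side on the plus strand of chromosome 11. MUC2 (ENSG00000198788; 1074875 to 1110511), the mucin of the colonic mucus layer, was close to the limit of detection. It had 4 reads in each HCT116 library (0.0155 and 0.0188 FPKM), 3 reads in adherent LOVO cells (0.0132 FPKM) and 12 reads in LOVO spheroids (0.0471 FPKM). None of its 4 comparisons excluded a ratio of 1 at this depth, the LOVO ratio of 3.57 having an interval from 0.962 to 19.7.

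MUC5AC (ENSG00000215182; 1157953 to 1201138), the mucin of the gastric and airway surface, had 9 reads (0.0253 FPKM) in adherent HCT116 cells and 15 reads (0.0512 FPKM) in HCT116 spheroids, against 63 reads (0.201 FPKM) in adherent LOVO cells and 94 reads (0.268 FPKM) in LOVO spheroids. It was 7.96-fold higher in LOVO than in HCT116 adherent cells (3.94 to 18.2) and 5.23-fold higher in spheroids (3.02 to 9.72). Within each line the ratio of spheroids to adherent cells had an interval that held 1, being 0.829 to 5.24 for HCT116 and 0.956 to 1.86 for LOVO. MUC5AC was therefore ordered by line, and growth form made no detectable difference at this depth.

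MUC5B (ENSG00000117983; 1223066 to 1262172), the gel-forming mucin of airway and salivary glands, had the highest FPKM of the 3 in every library. It had 29 reads (0.0765 FPKM) in adherent and 40 (0.128 FPKM) in spheroid HCT116 cells, and 185 (0.555 FPKM) in adherent and 113 (0.302 FPKM) in spheroid LOVO cells. Spheroids had 1.67-fold more MUC5B in HCT116 (1.01 to 2.80) and 1.84-fold less in LOVO (1.45 to 2.34). MUC5AC and MUC5B shared stretches of up to 91 bases, 0.434% of the 50-base stretches of MUC5AC. MUC5B-AS1, which overlaps 434 exonic bases of MUC5B on the opposite strand, had 0 reads in each library.

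The other gel-forming mucins were also low. MUC6, the gastric gland mucin, had 20 and 54 reads in adherent and spheroid HCT116 cells and 15 and 71 reads in LOVO, up to 0.419 FPKM. MUC19, a salivary mucin, had 30 and 71 reads in HCT116 and 1 and 0 in LOVO. TOLLIP, an adaptor of innate immune signalling that lies next to MUC5B, was measured at 6.21 to 7.84 FPKM in all 4 libraries, so the low mucin counts were not shared by the neighbouring gene.

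The trefoil factors lie in 1 cluster on the minus strand of chromosome 21, TFF3 (ENSG00000160180) from 42311667 to 42315651, TFF2 (ENSG00000160181) from 42346357 to 42351128 and TFF1 (ENSG00000160182) from 42362282 to 42366594. TFF3, the trefoil factor of goblet cells, had 0 reads in all 4 libraries, where the exact intervals reach up to 0.155 to 0.188 FPKM. TFF1, the trefoil factor of the gastric pit, had 1 read in LOVO spheroids (0.0902 FPKM) and 0 elsewhere. There the exact intervals reach up to 0.328 (adherent HCT116), 0.398 (HCT116 spheroids) and 0.373 FPKM (adherent LOVO). These genes are short, so their limits of detection in FPKM were higher than those of the long mucins.

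TFF2, the trefoil factor of gastric and duodenal glands, had 0 reads in both adherent libraries and 9 reads in each spheroid library. Its FPKM was 0.645 in HCT116 spheroids and 0.539 in LOVO spheroids. With 0 reads in the adherent libraries the ratio has no upper limit, and its counting interval began at 2.39-fold higher in spheroids in HCT116 and at 1.76-fold higher in LOVO. Against a floor of 3 reads in the adherent library, the 9 reads stood 3.64 and 2.67 times higher, without their own counting error. TFF2 was one of the members whose counting interval lay above 0 in both lines, together with MUC1, and it rests on 9 reads in each spheroid library.

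Other genes of the trefoil cluster were read for comparison. Of the 5 other protein-coding genes within 100 kb of each trefoil factor, 2 passed the filter, TMPRSS3 (a membrane serine protease) and ABCG1 (a lipid transporter). TMPRSS3 was at 0 and 0.0208 FPKM in HCT116 and at 21.6 and 26.5 FPKM in the LOVO libraries. The 2 LOVO libraries thus held a gene of this cluster at over 20 FPKM while TFF1 and TFF3 had at most 1 read.

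**Figure D3:**
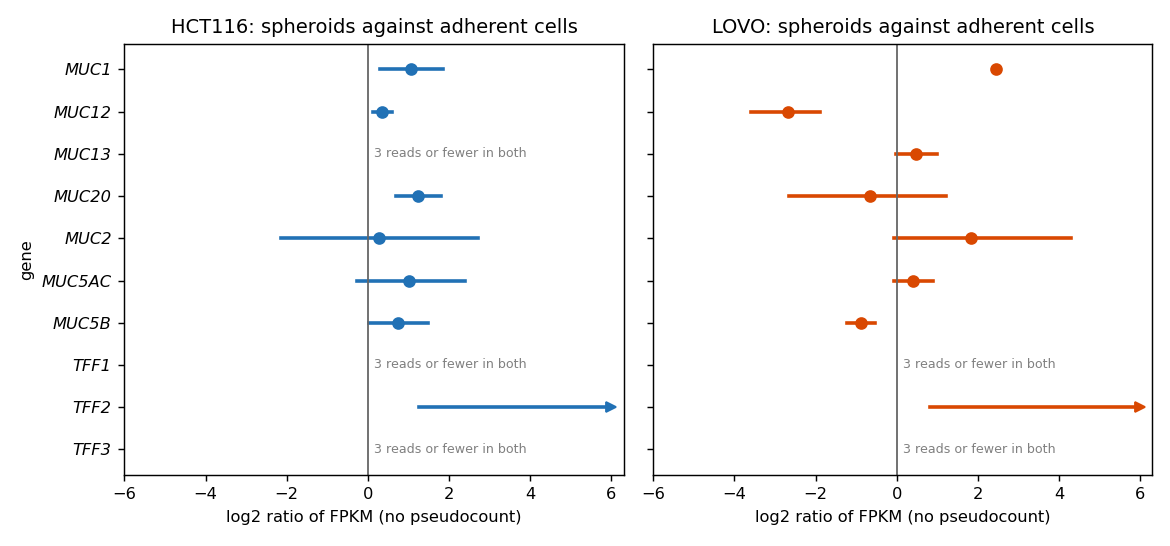
Log2 ratio of FPKM, spheroids to adherent cells, for each of the 10 genes in HCT116 (left) and LOVO (right), with 95% exact counting intervals and no pseudocount; arrows mark an adherent library with 0 reads. In HCT116 the 5 intervals that exclude 0 lie above it, and in LOVO 2 lie above (MUC1 and TFF2) and 2 below (MUC12 and MUC5B).

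Read together by growth form, 7 members had over 3 reads in at least 1 HCT116 library. In HCT116 the counting interval was above 0 for 5 of them (MUC1, MUC12, MUC20, MUC5B and TFF2), below 0 for 0 and held 0 for 2, while over all genes with over 3 reads 24.1% were above and 23.7% below. In LOVO 8 members had over 3 reads, and the interval was above 0 for 2 (MUC1 and TFF2), below 0 for 2 (MUC12 and MUC5B) and held 0 for 4, beside 31.4% above and 31.3% below over all such genes. These shares count reads only, so they are large for all genes. Among the 5 members in HCT116, the interval of MUC5B began at 1.01-fold, so near 1 that it depends on the scaling used. The count of MUC20 is uncertain because of the stretches it shares with other genes.

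Past a log2 difference of 2 on the log2(FPKM + 1) scale, 0 members were found in HCT116, where 0.201% of the genes compared were above 2 and 0.506% below -2. In LOVO 1 member, MUC1, was above 2 and 0 below -2, beside 1.81% and 0.943% of the genes compared. On this scale the changes of low genes are understated, the difference of MUC12 in LOVO being -0.29 while its log2 ratio without a pseudocount was -2.69. Without the filter and with a pseudocount of 0.01, a setting chosen after seeing the data, TFF2 was above 2 in HCT116, beside 6.76% of all genes. In LOVO 3 members were above 2 and 1 below -2, beside 9.55% and 3.91% of all genes. Of these 3, TFF1 rests on 1 read in spheroids against 0 in adherent cells.

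Read by line, MUC1, MUC5AC, MUC5B and MUC13 were higher in the libraries labelled LOVO and MUC12 and MUC20 lower, in adherent cells and again in spheroids, by counting intervals that excluded 0. In adherent cells these 4 and 2 were among 7 members with over 3 reads, beside 34.6% of all such genes above and 36.5% below. In spheroids they were among 8 members, beside 33.4% above and 36.3% below. Past a log2 difference of 2, only MUC1 was counted among the genes compared, in adherent cells (5.26% of genes above, 5.59% below -2) and in spheroids (5.68% above, 4.71% below -2). The line order thus split the membrane mucins, with MUC1 and MUC13 on one side and MUC12 and MUC20 on the other. Of the gel-forming mucins, MUC5AC and MUC5B lay on the side of MUC1, while MUC19, which is not one of the 10, was lower in LOVO in both growth forms by intervals that excluded 0.

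The only fit over samples that the design allows is limma on all 4 libraries, in which the lines stand in for replicates of growth form, or the growth forms for replicates of line, with 1 residual degree of freedom. For MUC1, the only member in this fit, spheroids were 1.32 above adherent cells (SE 0.54 on the log2(FPKM + 1) scale) with a limma adjusted p of 0.4642, and the direction was higher in 2 of 2 lines. This fit called 0 of 14429 genes (0% at an adjusted p under 0.05), while 1545 had an unadjusted p under 0.05. Between the lines MUC1 was 4.65 higher in LOVO (SE 0.54, limma adjusted p 0.01001), and 24.7% of all genes compared passed at this threshold. MUC1 passed the filter only through its LOVO levels, being under 1 FPKM in both HCT116 libraries. On simulated data with 200 of 14429 genes changed between lines, this fit called 104 unchanged genes beside 200 changed ones, 34.2% of its calls. This share depends on how many genes were changed, so it does not carry over to the 3564 genes called here. As the growth forms only stand in for replicates, the adjusted p is not used as support for a line difference. With no filter on low values the limma adjusted p of the line difference was 0.3577 and 0 genes were called.

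The sugar chains of mucins are built in the Golgi by O-glycosylation enzymes, of which a list of 30 was read. Of these, 18 passed the filter. In HCT116, 10 were higher in spheroids and 8 lower, with a median log2(FPKM + 1) difference of 0.097 beside -0.033 over all genes. In LOVO, 10 were higher and 8 lower, with a median of 0.0088 beside -0.055, and none was past 2 in either line. GALNT1 and GALNT2, which attach the first sugar, went from 45.0 to 15.0 FPKM and from 83.1 to 31.0 FPKM between adherent and spheroid LOVO cells. In HCT116 they were at 16.2 to 18.1 FPKM in both growth forms. C1GALT1C1, the chaperone of the core 1 synthase, was at 24.9 FPKM in adherent LOVO cells and 38.8 FPKM in LOVO spheroids, and at 10.4 and 11.2 FPKM in HCT116. ST3GAL4, a sialyltransferase, was at 4.58 and 5.23 FPKM in HCT116 and at 39.4 and 29.8 FPKM in LOVO. GALNT1 and GALNT2 were thus lower in LOVO spheroids, where MUC1 was higher. C1GALT1, the core 1 synthase, went the other way, from 4.82 FPKM in adherent to 16.6 FPKM in spheroid LOVO cells. The 18 enzymes as a list therefore had no common direction in LOVO.

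Genes of the goblet cell, which makes intestinal mucus, were mostly under 1 FPKM. Of 16 goblet cell secretory genes 3 passed the filter, although 10 and 9 had over 3 reads in adherent and spheroid HCT116 cells, and 7 and 8 in LOVO. CLCA1 and AGR3 had 0 reads in all 4 libraries. AGR2, the disulfide isomerase that MUC2 needs for folding, reached at most 0.105 FPKM. In LOVO the 3 genes that passed the filter were all higher in spheroids, with a median difference of 1.5. Over all genes compared 45.5% were higher in LOVO, with a median of -0.055. SPINK4 passed the filter only through its level in LOVO spheroids, so its direction in LOVO was set by the filter. In HCT116 2 of the 3 genes were higher and 1 lower, with a median of 0.27, beside 45.8% higher and a median of -0.033 over all genes. Under the filter, ZG16 went the other way in LOVO, with 15 reads (0.267 FPKM) in adherent cells and 0 in spheroids. SPINK4, a goblet cell protease inhibitor, was at 1.19 FPKM in adherent LOVO cells and 13.9 FPKM in LOVO spheroids, a difference of 2.76, and had at most 1 read in HCT116. QSOX1, a sulfhydryl oxidase of the secretory pathway, was at 17.1 and 38.9 FPKM in LOVO and at 19.8 and 24 FPKM in HCT116. SYTL2, which takes part in granule docking, was at 0.248 and 2.54 FPKM in LOVO and at 2.33 and 4.52 FPKM in HCT116. KLK1, a tissue kallikrein, was at 0.0938 and 0.752 FPKM in LOVO and at 0.392 and 0.876 FPKM in HCT116. FCGBP, a mucus protein that binds trefoil factors, stayed at or below 0.735 FPKM in every library.

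Of 15 goblet and gastric lineage regulators 7 passed the filter. In HCT116, 2 were higher and 5 lower in spheroids (median -0.13), beside 45.8% higher and a median of -0.033 over all genes compared. In LOVO 5 were higher and 1 lower (median 0.14), beside 45.5% higher and a median of -0.055. CDX2, which also passed the filter, had 0 reads in both LOVO libraries. KLF4, a goblet cell differentiation factor, had the highest mean FPKM of the list, with 19.6 and 16.9 in HCT116 and 12.8 and 5.32 in LOVO. HES1, a Notch target, was at 13.0 and 12.2 FPKM in HCT116 and 5.17 and 5.91 FPKM in LOVO. GATA6, an endodermal factor, was at 3.83 and 3.42 FPKM in HCT116 and 3.86 and 4.37 FPKM in LOVO. FOXA1, a pioneer factor, was at 0.567 and 0.673 FPKM in HCT116 and 5.80 and 6.0 FPKM in LOVO. ATOH1 and SPDEF, which direct goblet cell fate, stayed under 0.35 FPKM in each library.

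Among the listed partners of the trefoil factors, CXCR4 and EGFR were above each of the 3 factors in every library. CXCR4, a chemokine receptor proposed for TFF2, was at 2.14 and 5.25 FPKM in adherent and spheroid HCT116 cells and at 14.2 and 48.5 FPKM in LOVO. It was higher in the spheroids of both lines, by 0.99 and 1.71 on the log2(FPKM + 1) scale, as were the reads of TFF2. ACKR3, the other CXCL12 receptor, went from 25.3 FPKM in adherent LOVO cells to 3.57 FPKM in LOVO spheroids, a difference of -2.52, and had at most 3 reads in HCT116. LINGO2, proposed for TFF3, was at 0.641 and 1.56 FPKM in LOVO and had 0 reads in HCT116, and LINGO3 had at most 4 reads in any library. EGFR, the epidermal growth factor receptor, was at 18.8 and 15.3 FPKM in HCT116 and at 84.0 and 49.2 FPKM in LOVO. Of the 8 listed partners 3 passed the filter, with a median difference of -0.091 in HCT116 and -0.76 in LOVO. Over all genes compared these medians were -0.033 and -0.055.

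**Figure D4:**
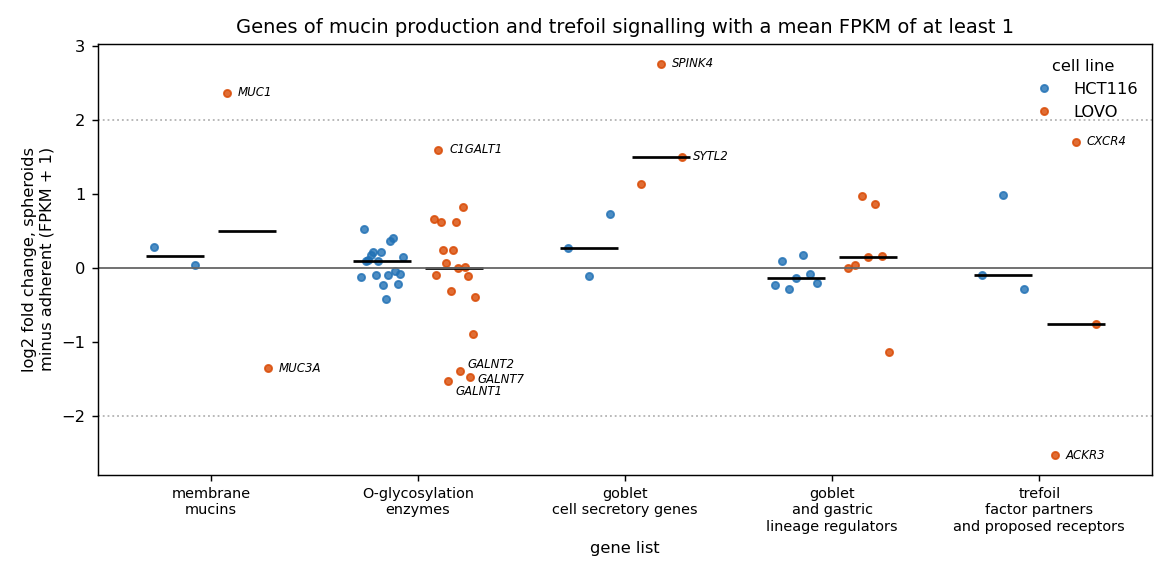
Log2 difference, spheroids minus adherent cells (FPKM + 1), of each gene with a mean of at least 1 FPKM in 5 lists, for HCT116 (blue) and LOVO (orange); black bars are list medians and dotted lines mark differences of 2 and -2. In LOVO, MUC1 and SPINK4 lie above 2 and ACKR3 below -2, while no gene of these lists passes either line in HCT116.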

How the data were processed

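RNA-seq was performed by the authors on 4 libraries (RNeasy extraction, SMARTER mRNA-Seq kit). The deposited values are FPKM per gene, which already carry a scaling between libraries (the library sizes used were 0.907 to 1.09 times the reads on genes). The aligner and counter are not given in the sources used here. The submitters' processing notes name the mouse builds GRCm38 and mm10, but all 58735 identifiers are human genes of GENCODE 29, whose GRCh38 coordinates those of the 10 members matched.

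Whole reads were recovered as FPKM times gene length over the value of 1 read (100% whole within 0.01 read). Differences were taken on log2(FPKM + 1) over genes whose mean was at least 1 FPKM, with exact 95% intervals of the ratio from the reads. limma 3.58.1 (R 4.3.3, with trend and Benjamini-Hochberg over 14429 genes) was fitted to all 4 libraries. On simulated data with 200 of 14429 genes changed, it called more unchanged genes than its nominal rate. They made up 21.4% of its calls for growth form and 34.2% for line, shares that depend on the number of genes changed. Levels, lists and figures were computed in Python 3.11.15 with numpy 2.4.6, pandas 2.3.3, scipy 1.17.1 and matplotlib 3.10.9. Genes named were all 10 members, other mucins with over 3 reads in any library, from each other list the 4 with the highest mean FPKM and any past 2 between growth forms within a line (differences between the lines named none), and the coding genes within 100 kb (1 neighbour is not reported here). AGR2, AGR3, CLCA1, FCGBP, ZG16, C1GALT1, ATOH1, SPDEF and LINGO3 were named after their values were seen. Members and lists were chosen with earlier results of these data known. Alternatives were other pseudocounts, filters, thresholds and scalings. The recovered reads were not used in a count test, since there is 1 library per condition.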

Additional observations from a re-analysis of the deposited data

Results flagged for a closer look

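MUC5B, MUC12 and MUC20 were picked out because the difference between spheroids and adherent cells had opposite signs in the 2 lines. With 1 library per condition the difference between the lines was not tested. MUC5B differed by 0.067 on the log2(FPKM + 1) scale in HCT116 and by -0.26 in LOVO. MUC12 differed by 0.17 in HCT116 and by -0.29 in LOVO. For both genes the counting intervals of the ratio excluded 1 in both lines. For MUC5B in HCT116 the interval began at 1.01-fold, or 0.017 on the log2 scale. TMM-style scaling moved the HCT116 median of all genes from -0.033 to -0.055, so this exclusion depends on the scaling used. MUC20 differed by 0.54 in HCT116 and by -0.045 in LOVO, where it had 7 and 5 reads and an interval that held 1.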

How the results depend on the processing

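No paired analysis by replicate number could be made, since each condition has 1 library, and no library could be left out within a line. The limma fit of growth form pairs the libraries within line, and without the line term the unadjusted p was under 0.05 for 163 genes in place of 1545. Of 150 values of the 30 member differences under other pseudocounts and scalings, 112 moved by less than the counting error and 38 by more. Of these 38, 30 moved with a smaller pseudocount and 8 with TPM. The counting error was taken from the ratio without a pseudocount, so it is wide for genes with few reads. MUC2 in LOVO went from 0.047 to 1.30 with a pseudocount of 0.01 and still moved by less than its counting error of 2.18. The count of 112 therefore does not show that low genes are stable. With a pseudocount of 0.01 the growth form differences of TFF2, which had 0 reads in the adherent libraries, were 6.03 (HCT116) and 5.78 (LOVO) in place of 0.72 and 0.62. The sign changed in 1 of the 150 values, MUC20 in LOVO, which was 0.010 after centring on the median of all genes. For MUC1, TPM gave 2.63 in LOVO, 4.74 between adherent cells and 6.79 between spheroids. A pseudocount of 0.1 gave 5.36 and 6.98, and 0.01 gave 5.78 and 7.20, for the same line differences. TPM moved the median of all genes from -0.055 to 0.095 in LOVO and from 0.039 to 0.26 between spheroids. With no filter and a pseudocount of 0.01, a setting chosen after seeing the data, more members were past the threshold. Members past 2 numbered 1 in HCT116, 3 in LOVO, 4 in adherent cells and 4 in spheroids. Among all genes the share past 2 was 6.76%, 9.55%, 7.23% and 9.16%, in the same order. Members past -2 numbered 1 in LOVO, 1 in adherent cells and 2 in spheroids, beside 3.91%, 14.8% and 13.3% of all genes. Genes above 2 in LOVO numbered 261, against 748 and 950 with pseudocounts of 0.1 and 0.01, 661 with TPM and 1236 at a threshold of 1; in HCT116 they numbered 29 against 128, 221, 80 and 316. The limma fit between lines called 3564 genes, 1887 above a mean of 5 FPKM and 0 with no filter, where the MUC1 difference of 4.65 had a limma adjusted p of 0.3577. Across its other alternatives that adjusted p was 0.006352 to 0.02018, and the adjusted p of the growth form difference was 0.3691 to 1 (0.9999 without the line term). Levels of 9 of the 10 genes rest on at most 305 reads a library, and those of MUC2 and the trefoil factors on at most 12, which limits what a difference could show.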
